A study of Mus musculus with 12 samples.

Results

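The Notch pathway, HES/HEY and ID genes described here are 10 genes found by their names among the 54345 genes of the deposited table. They are the receptors Notch1, Notch2 and Notch3, the ligand Jag1, the target genes Hes1 and Hey1, and the ID genes Id1, Id2, Id3 and Id4. Each of 4 groups of H9c2 cells gave 3 poly(A) RNA libraries, 12 in all, after 6 h. Unt cells were untreated, DOX cells received doxorubicin, D_DXZ cells received doxorubicin with dexrazoxane (DXZ), and D_MgHCF cells received doxorubicin with the magnesium hexacyanoferrate (MgHCF) nanocatalysts. All libraries come from the same wild-type line, H9c2(2-1), and no group analysed here received DXZ or MgHCF without doxorubicin. The labels call the cells myoblasts and give mouse as the organism, whereas the study describes H9c2 as rat cardiomyoblasts, and the values are for mouse genes. The labels do not say whether the replicates came from separate cultures, so the p-values measure the spread between these libraries, which may be technical.

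Notch receptors are single-pass membrane proteins that are cleaved when a ligand such as Jag1 on a neighbouring cell binds them. ADAM proteases cut outside the membrane and gamma-secretase within it, and the freed intracellular domain joins the DNA-binding protein RBPJ and Mastermind-like proteins in the nucleus. Classic targets of this complex are the HES and HEY genes, which encode basic helix-loop-helix repressors. ID proteins have the helix-loop-helix without the basic region, so they bind E proteins and keep them from DNA, and their genes are known targets of BMP signalling through SMAD1, SMAD5 and SMAD4. Both families are known to restrain differentiation of muscle precursors, and Notch signalling also takes part in heart development.

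The values are FPKM (fragment counts divided by gene length and by a scaling factor of the library), which give levels per gene length. If rat reads were assigned to mouse genes, genes may have been read with unequal efficiency, so levels and shares of different genes may not be comparable, which was not tested. Whole reads could be recovered from them, with 16626514 to 19365119 reads on genes per library. The deposited scaling sets the libraries to similar medians. With TPM, which sets all libraries to the same total, the median gene with FPKM of at least 1 shifted by -1.18 on the log2 scale in DOX against Unt, by -1.10 in D_DXZ against Unt, by -0.22 in D_MgHCF against Unt and by 1.02 in D_MgHCF against DOX. Changes are therefore given on the deposited scaling, relative to the median gene, and directions that flip with TPM are named. Replicates correlated at 0.989 to 0.995 in Unt, DOX and D_DXZ and at 0.942 to 0.984 in D_MgHCF, where replicate 3 stood apart. Of the 7 myoblast markers, Myod1, Myf5 and Myog were listed at 0 in the 3 Unt libraries, while vimentin (Vim) reached 220.0 to 268.2 FPKM in Unt and 869.9 to 1136 in DOX. The summed FPKM of these markers ranged from 221.5 to 269.7 in untreated libraries and from 870.8 to 1137 in those with DOX alone, while it was 693.9 to 879.0 with DXZ added and 95.9 to 158.6 with MgHCF added. The 6 cardiomyocyte markers summed to 9.80 to 11.0 FPKM in untreated libraries, 3.14 to 5.82 with DOX, 3.04 to 4.29 with DXZ added and 14.9 to 26.4 with MgHCF added, and Nkx2-5, Myh6 and Myl2 were listed at 0 in Unt. In each group only 1 of these 6 genes reached 1 FPKM in any library. The order of their sum, with DOX and D_DXZ below and D_MgHCF above Unt, is also that of Hes1. The 4 leukocyte markers summed to 0.888 to 1.11 FPKM in untreated libraries, 2.75 to 3.54 with DOX, 3.81 to 4.29 with DXZ added and 1.98 to 4.82 with MgHCF added. Here too only 1 of the 4 genes reached 1 FPKM in each group. The 4 epithelial markers reached at most 0.154 FPKM in untreated libraries and 1.63 in those with MgHCF. The 5 endothelial markers together reached at most 0.104 FPKM in Unt, 0.208 in DOX, 0.125 in D_DXZ and 1.15 in D_MgHCF. Whether these shifts had a part in the values of the 10 genes was not tested, and in bulk RNA fewer cells of a type and less RNA per cell cannot be told apart.

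In untreated cells Id3 was the highest of the 10 genes, at 81.4 ± 6.1 FPKM (SD, n = 3), followed by Id1 at 32.1 ± 1.14. Id2 (9.35 ± 0.774), Notch2 (8.35 ± 0.40), Jag1 (6.60 ± 0.235), Notch3 (4.89 ± 0.258), Hes1 (4.69 ± 0.558) and Notch1 (2.56 ± 0.127) came next. The neighbours Id2 and Notch2 and the neighbours Notch3 and Hes1 overlapped between libraries. Hey1, at 0.275 ± 0.0765 FPKM, and Id4, at 0.0177 ± 0.00611, were close to the limit of detection, with 15 to 26 and 1 to 2 reads per library. In DOX the order differed, with Id1 (9.59 ± 1.09) above Notch3 (7.36 ± 0.0519) and Id3 (5.68 ± 0.926), and with Id2, Jag1, Notch1, Notch2 and Hes1 all between means of 1.26 and 1.92 FPKM and overlapping. In D_MgHCF, Id1 stood at 41.0 ± 14.5 FPKM, Id3 at 20.9 ± 5.14 and Id2 at 16.2 ± 9.34, where Id3 overlapped with both of the others and Id1 and Id2 did not overlap.

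**Figure D1:**
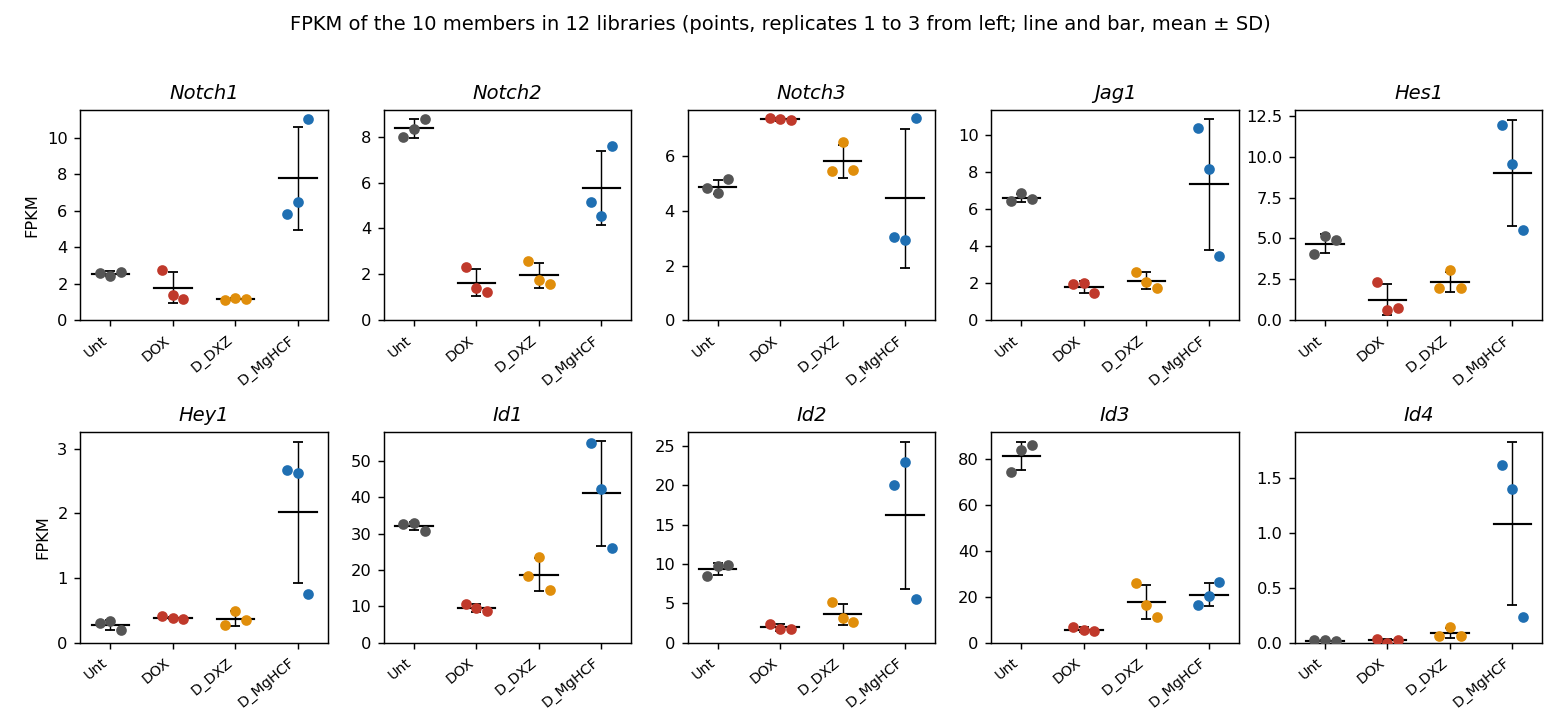
FPKM (vertical axes, linear from 0, a scale for each gene) of the 10 genes in the 12 libraries, with points for replicates 1 to 3 from left to right in each group and the mean ± SD. The DOX and D_DXZ points of Notch2, Jag1, Hes1, Id1, Id2 and Id3 lie below all Unt points, and the 3 D_MgHCF points of Notch1, Hey1 and Id4 lie above the points of the other groups.

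In DOX, 6 of the 10 genes had lower levels than in untreated cells (limma, Benjamini-Hochberg adjusted p under 0.05 over 25044 genes tested) and none was higher, also at an unadjusted p under 0.05 and with voom on the recovered reads, while quantile normalization and a fit of the 2 groups each called Notch3 higher. Over all genes tested, 18.6% were called higher and 19.9% lower at the adjusted p. The median log2 fold change of the 10 genes was -1.42, against 0.00 over all genes tested. In D_DXZ against Unt, 6 of the 10 were lower and none was higher with limma and with voom. Beside this, limma called 15.9% of all genes higher and 18% lower at the adjusted p. At an unadjusted p under 0.05, 7 of the 10 were lower and none higher, with Hes1 added. Shares of all genes at an unadjusted p were counted only in D_DXZ against DOX. The 6 became 3 when any Unt library or D_DXZ replicate 3 was left out. In D_MgHCF against Unt, 3 were higher and 1 was lower, close to the 24.3% higher and 15.7% lower of all genes. Without D_MgHCF replicate 3, the counts were 7 higher and 3 lower, beside 33.4% and 18.7% of all genes. In D_MgHCF against DOX, 9 were higher and 1 was lower, beside 31.4% of all genes called higher and 20.1% lower, with a median log2 fold change of 1.56 against 0.07 over all genes. In D_MgHCF against D_DXZ, 8 were higher and none was lower (29.4% and 19% of all genes at the adjusted p). The 10 genes gave the same counts at an unadjusted p and with voom. In D_DXZ against DOX limma called 0 of the 10, as voom did, and 0% of all genes in either direction, and 2 of the 10 had an unadjusted p under 0.05, both higher, where 4.56% of all genes were higher and 4.97% lower. The comparisons share groups, so their counts are not independent of each other.

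**Figure D2:**
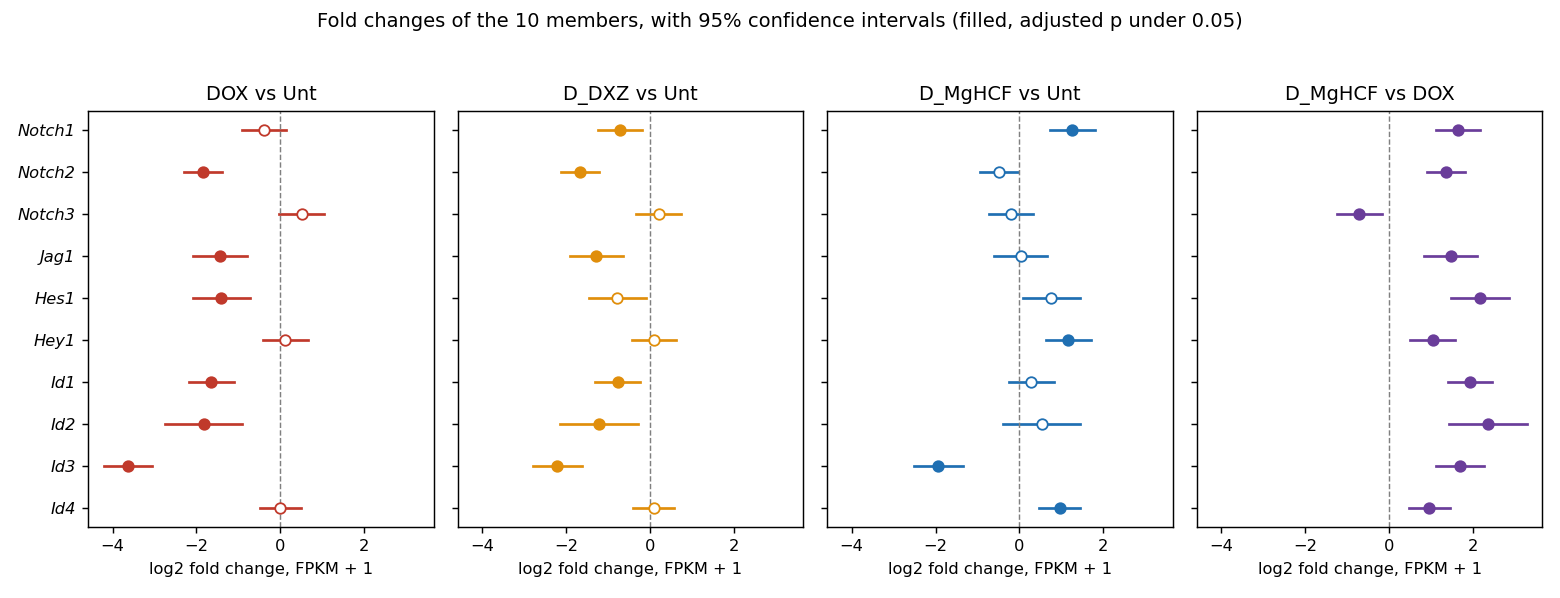
Log2 fold changes on the FPKM + 1 scale (horizontal axes) of the 10 genes in 4 comparisons, with 95% confidence intervals, filled where the adjusted p was under 0.05. In DOX against Unt the filled points are Notch2, Jag1, Hes1, Id1, Id2 and Id3, all left of 0, and in D_MgHCF against DOX all points are filled and only Notch3 lies left of 0, at -0.71.

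Among the receptors, a different gene held the largest share of the family in Unt, DOX and D_MgHCF. Notch2 (ENSMUSG00000027878, chr3:98013527-98150361, plus strand of GRCm38) was the main receptor transcript in Unt, with 51.8%, 54.0% and 52.8% of the summed FPKM of the 3 receptors in replicates 1, 2 and 3. Notch3 (ENSMUSG00000038146, chr17:32120820-32166880, minus strand) held 59.3%, 72.4% and 75.1% in DOX, against 31.4%, 30.3% and 31.1% in Unt. Notch1 (ENSMUSG00000026923, chr2:26457903-26516663, minus strand) held 41.5%, 46.5% and 42.4% in D_MgHCF. It held 12.5 to 14.2% in D_DXZ, 12.2 to 22.3% in DOX and 15.7 to 16.8% in Unt, so its D_MgHCF libraries overlapped no other group. These shares are ratios within a library and do not depend on its scaling. On the log2(FPKM + 1) scale the Notch2 to Notch3 ratio in DOX was 2.35 below that in Unt and the Notch1 to Notch2 ratio 1.75 higher in D_MgHCF than in Unt, both without overlap (two-sided exact permutation test, p = 0.1, the smallest that 3 against 3 libraries allow, adjusted p = 0.16 over 60 ratio tests).

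**Figure D3:**
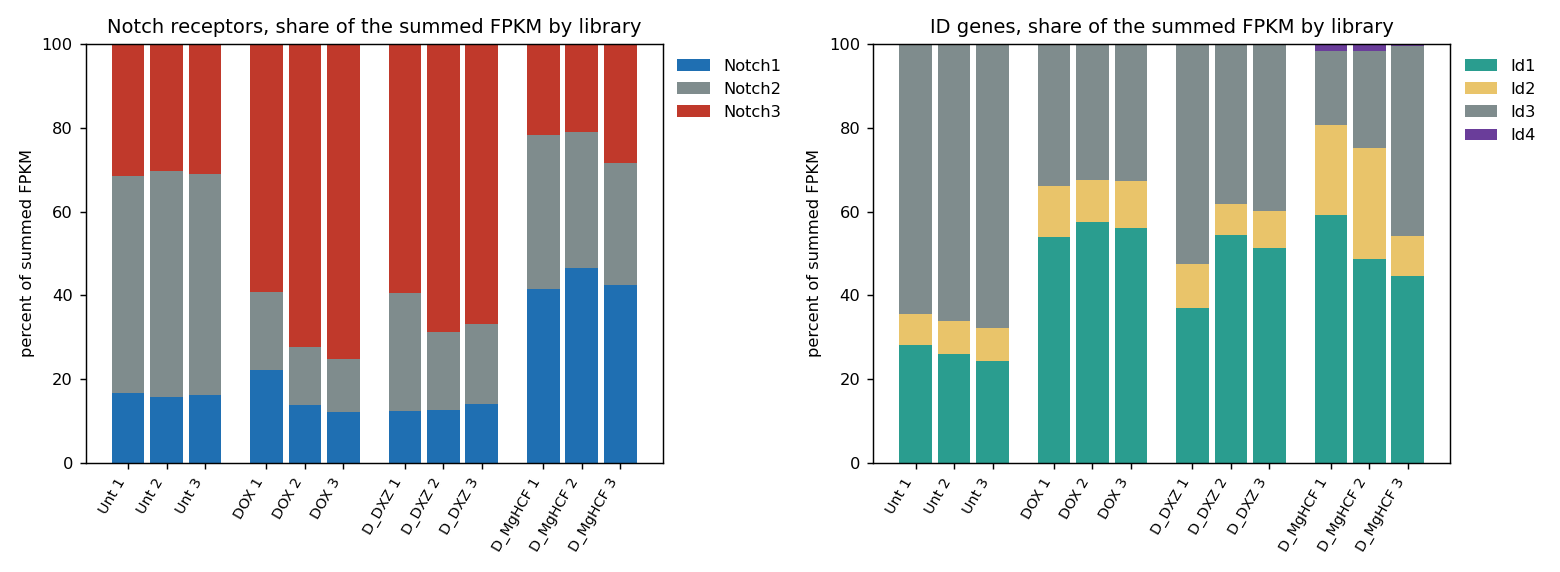
Share of the summed FPKM (percent, vertical axes) held by each receptor gene on the left and by each ID gene on the right, with 1 bar per library. Notch3 takes 59.3 to 75.1% of the receptor bars in DOX and 59.4 to 68.8% in D_DXZ, Notch1 takes 41.5 to 46.5% in D_MgHCF, and Id3 takes 64.5 to 67.9% of the ID bars in Unt, against at most 52.5% in the other groups.

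Notch2 stood at 7.97, 8.33 and 8.76 FPKM in Unt, at 2.30, 1.40 and 1.23 in DOX, at 2.57, 1.75 and 1.57 in D_DXZ and at 5.15, 4.55 and 7.57 in D_MgHCF. All treated libraries were below the Unt libraries, those of DOX and D_DXZ most. The log2 fold change was -1.84 (SE 0.20, adjusted p = 5e-05) in DOX against Unt, -1.67 (SE 0.20, adjusted p = 0.000174) in D_DXZ against Unt and 1.35 (SE 0.20, adjusted p = 0.00031) in D_MgHCF against DOX in limma. In D_MgHCF against Unt it was -0.49 (adjusted p = 0.078 in limma), and -0.68 without D_MgHCF replicate 3 (adjusted p = 0.0136).

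Notch1 was at 2.58, 2.42 and 2.67 FPKM in Unt, at 2.79, 1.41 and 1.19 in DOX, at 1.14, 1.21 and 1.16 in D_DXZ and at 5.80, 6.51 and 11.0 in D_MgHCF. The D_MgHCF libraries were above all others, and replicate 1 of DOX lay among the untreated values. Notch1 rose in D_MgHCF by 1.26 on the log2 scale (SE 0.24, adjusted p = 0.00254) against Unt, by 1.65 (adjusted p = 0.000246) against DOX and by 1.97 (adjusted p = 9.7e-05) against D_DXZ in limma. In DOX against Unt it was -0.39 (adjusted p = 0.264), and -0.63 without DOX replicate 1 (adjusted p = 0.0489). In D_DXZ against Unt it was lower by a small margin, at -0.71 (adjusted p = 0.0418 in limma), and leaving out any of 8 of the 12 libraries ended that call, with adjusted p from 0.0107 to 0.107 over the 12. With TPM Notch1 was called lower in both, at -1.64 in DOX (adjusted p = 0.00249) and -1.91 in D_DXZ (adjusted p = 0.000984 in limma). Relative to the shift of the median gene these were -0.47 and -0.81. Exons of the antisense transcript 0610009E02Rik cover 1068 of the 14232 exon bases of Notch1, and the strand setting of the counting is not given in the sources used here, so reads of both cannot be told apart there. That transcript was given 22 to 57 reads per group.

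Notch3, known mainly from vascular smooth muscle and pericytes, was at 4.83, 4.66 and 5.17 FPKM in Unt, at 7.41, 7.35 and 7.31 in DOX, at 5.44, 6.51 and 5.48 in D_DXZ and at 3.05, 2.94 and 7.38 in D_MgHCF. The DOX and D_DXZ libraries lay above all untreated ones, and D_MgHCF replicate 3 lay with DOX while replicates 1 and 2 lay below Unt. In DOX against Unt the difference was 0.51 (95% confidence interval -0.03 to 1.04, adjusted p = 0.136 in limma) and it passed the threshold without D_MgHCF replicate 3 (adjusted p = 0.000487), with quantile normalization (0.80, adjusted p = 0.0403) and in a fit of these 2 groups (adjusted p = 0.00066), but was -0.73 with TPM, which is 0.44 relative to the shift of the median gene. Notch3 was lower in D_MgHCF than in DOX by -0.71 (adjusted p = 0.0308 in limma) on the deposited scaling but 0.34 higher with TPM (adjusted p = 0.393), which is -0.68 relative to the shift of the median gene. The call was also lost when any of the 3 DOX libraries or D_MgHCF replicate 1 or 2 was left out (adjusted p up to 0.116), and without D_MgHCF replicate 3 the difference was -1.07 (adjusted p = 9.63e-06).

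The upstream sequences of Notch2 and Notch3 are shown because these receptors took opposite places in the family in Unt and DOX. They are mouse reference sequences from RefSeq (GRCm38.p6), ending at the first annotated exon base. Of the 10 genes, 7 matched a RefSeq start, while Hes1, Hey1 and Id1 had none in the sequences used here. Capitals mark the N-box CACNAG, a sequence that HES proteins are known to bind, on either strand.
Notch2 (chr3:98013288-98013526, plus strand): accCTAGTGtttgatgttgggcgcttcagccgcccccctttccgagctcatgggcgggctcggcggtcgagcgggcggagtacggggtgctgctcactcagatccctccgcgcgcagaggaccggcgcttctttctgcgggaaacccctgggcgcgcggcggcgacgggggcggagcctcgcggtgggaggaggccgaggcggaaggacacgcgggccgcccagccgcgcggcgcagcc
Notch3 (chr17:32166891-32167140, minus strand): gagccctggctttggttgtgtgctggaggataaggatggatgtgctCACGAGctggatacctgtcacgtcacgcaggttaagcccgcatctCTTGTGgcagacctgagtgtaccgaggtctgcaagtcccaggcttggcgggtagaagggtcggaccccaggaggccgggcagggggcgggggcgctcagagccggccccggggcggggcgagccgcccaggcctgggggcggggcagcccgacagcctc
Notch2 has 1 N-box, 247 bases before the start on the minus strand, and Notch3 has 2. Of 32851 mouse promoters, 36.7% hold the N-box within 250 bases before the start, so its presence does not set these genes apart. Neither window holds the RBPJ core TGGGAA, found in 21.6% of promoters. Both are rich in G and C (72.0% and 68.8%, against a median of 52.4%).

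Jag1 (chr2:137081456-137116644, minus strand), the ligand, followed Notch2 rather than Notch3 in DOX and D_DXZ. It was at 6.42, 6.87 and 6.52 FPKM in Unt, at 1.97, 2.02 and 1.45 in DOX, at 2.64, 2.07 and 1.75 in D_DXZ and at 10.4, 8.18 and 3.47 in D_MgHCF. The doxorubicin libraries with and without DXZ were all below Unt, and the D_MgHCF libraries lay on both sides of it. Jag1 fell in DOX against Unt by 1.44 on the log2 scale (SE 0.29, adjusted p = 0.00202) and in D_DXZ against Unt by 1.28 (adjusted p = 0.00511 in limma). It was 1.47 higher in D_MgHCF than in DOX (adjusted p = 0.00158 in limma). Against Unt the D_MgHCF difference was 0.03 (95% confidence interval -0.61 to 0.66, adjusted p = 0.953), and 0.43 without replicate 3 (adjusted p = 0.0383). With TPM it was -0.13.

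Hes1 (chr16:30064384-30067796, plus strand), the most widely used transcriptional readout of Notch, was at 4.06, 5.12 and 4.88 FPKM in Unt, at 2.36, 0.65 and 0.76 in DOX, at 2.01, 3.07 and 1.95 in D_DXZ and at 11.9, 9.55 and 5.50 in D_MgHCF. The DOX and D_DXZ libraries were below and the D_MgHCF libraries above every untreated one. Hes1 fell in DOX against Unt by 1.41 on the log2 scale (SE 0.31, adjusted p = 0.00379) and was 2.17 higher in D_MgHCF than in DOX (SE 0.31, adjusted p = 0.000211) and 1.54 higher than in D_DXZ (adjusted p = 0.00216) in limma. In D_DXZ against Unt it was -0.78 (adjusted p = 0.08) and in D_MgHCF against Unt 0.76 (adjusted p = 0.0734). Without D_MgHCF replicate 3 both passed the threshold, at adjusted p = 0.0383 and a difference of 1.04 with adjusted p = 0.0138. Hes1 had 17 to 73 reads in the DOX libraries, against 208 to 250 in Unt.

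Hey1 (chr3:8663359-8667256, minus strand) was too low in Unt for a fall like that of Hes1 to show on the log2(FPKM + 1) scale. It was at 0.304, 0.332 and 0.188 FPKM in Unt, at 0.404, 0.382 and 0.371 in DOX, at 0.266, 0.491 and 0.344 in D_DXZ and at 2.67, 2.62 and 0.749 in D_MgHCF. The D_MgHCF libraries were above all others, with 60 to 218 reads against 14 to 26. Hey1 rose in D_MgHCF by 1.16 on the log2(FPKM + 1) scale against Unt (SE 0.24, adjusted p = 0.00388) and by 1.04 against DOX (adjusted p = 0.00446) in limma, a scale that makes changes of such low genes smaller than the ratio of their FPKM. In DOX against Unt the difference was 0.12 (adjusted p = 0.809), and -0.40 with TPM (adjusted p = 0.405). The ratio of Hes1 to Hey1 was 1.53 lower in DOX than in Unt on the same scale, without overlap (two-sided exact permutation test, p = 0.1, the smallest allowed, adjusted p = 0.16). With Hey1 close to the limit of detection in both groups, this ratio mostly restates the fall of Hes1.

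Id1, Id2 and Id3 fell together in DOX, while Id4 was too low in Unt for a fall to be seen. The 4 ID genes differed in how far D_MgHCF stood from Unt. Their summed FPKM was 122.9 ± 6.40 (SD, n = 3) in Unt, 17.2 ± 2.40 in DOX, 40.2 ± 10.7 in D_DXZ and 79.2 ± 18.5 in D_MgHCF, without overlap between any 2 groups. Id3 (chr4:136143497-136145755, plus strand) had the largest log2(FPKM + 1) change against Unt of the 10 genes, a scale that makes the change of Id4 small. It was at 74.5, 83.8 and 86.0 FPKM in Unt, at 6.73, 5.35 and 4.97 in DOX, at 25.8, 16.3 and 11.2 in D_DXZ and at 16.2, 20.2 and 26.4 in D_MgHCF. Every treated library was far below the lowest untreated one, and the D_DXZ and D_MgHCF libraries overlapped. Id3 fell by 3.63 on the log2 scale in DOX (SE 0.26, adjusted p = 1.09e-05), by 2.21 in D_DXZ (SE 0.26, adjusted p = 0.000148) and by 1.93 in D_MgHCF (SE 0.26, adjusted p = 0.00035) against Unt in limma. D_MgHCF was 1.70 above DOX (adjusted p = 0.000334) and 0.27 from D_DXZ (95% confidence interval -0.30 to 0.85, adjusted p = 0.412). D_DXZ was 1.42 above DOX (unadjusted p = 0.000248, adjusted p = 0.171 in limma), with all 3 libraries higher.

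Id1 (chr2:152736251-152737410, plus strand), known as a direct BMP target, was at 32.5, 33.0 and 30.8 FPKM in Unt, at 10.7, 9.47 and 8.57 in DOX, at 18.2, 23.4 and 14.5 in D_DXZ and at 54.9, 42.2 and 26.0 in D_MgHCF. Unt, DOX and D_DXZ did not overlap, with D_DXZ in between, and D_MgHCF lay on both sides of Unt. Id1 fell by 1.65 on the log2 scale in DOX against Unt (SE 0.24, adjusted p = 0.00027) and by 0.77 in D_DXZ against Unt (adjusted p = 0.0289), and was 1.93 higher in D_MgHCF than in DOX (adjusted p = 8.83e-05) in limma. In D_MgHCF against Unt it was 0.28 (adjusted p = 0.378), and 0.57 without replicate 3 (adjusted p = 0.0247). D_DXZ was 0.88 above DOX (unadjusted p = 0.00429, adjusted p = 0.322).

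Id2 (chr12:25093799-25097140, minus strand) was at 8.46, 9.72 and 9.87 FPKM in Unt, at 2.40, 1.66 and 1.70 in DOX, at 5.11, 3.13 and 2.55 in D_DXZ and at 20.0, 23.0 and 5.53 in D_MgHCF. DOX and D_DXZ did not overlap with each other or with Unt, while D_MgHCF replicates 1 and 2 were above and replicate 3 below the untreated libraries. Id2 fell by 1.83 on the log2 scale in DOX (SE 0.42, adjusted p = 0.00476) and by 1.21 in D_DXZ (adjusted p = 0.0466) against Unt, and was 2.36 higher in D_MgHCF than in DOX (SE 0.42, adjusted p = 0.000872) in limma. In D_MgHCF against Unt the difference was 0.53 (adjusted p = 0.343), and 1.12 without replicate 3 (adjusted p = 0.00172). The calls of Id1 and Id2 in D_DXZ against Unt were lost when any of the 3 Unt libraries was left out, among others, with adjusted p of at most 0.116 for Id1 and 0.151 for Id2.

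Id4 (chr13:48261228-48266026, plus strand) was read almost only in D_MgHCF. It had 2, 2 and 1 reads in Unt, 2, 0 and 1 in DOX, 4, 7 and 3 in D_DXZ and 131, 137 and 22 in D_MgHCF, where it reached 1.62, 1.40 and 0.233 FPKM. A count of 0 allows up to 3 reads, or 0.0607 FPKM in that DOX library, by counting error alone. Id4 rose in D_MgHCF by 0.96 on the log2(FPKM + 1) scale against Unt (SE 0.22, adjusted p = 0.00673) and by 0.96 against DOX (adjusted p = 0.00435) in limma, and by 1.30 against both without replicate 3. The D_MgHCF libraries also held more genes in all, with 23368 to 25456 genes above 0 against 18530 to 20660 in the other groups, and whether that had a part in Id4 was not tested. Exons of A330033J07Rik and Gm49291 on the other strand cover 82 and 171 of the 3849 exon bases of Id4, and A330033J07Rik had at most 4 reads per group.

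The upstream sequences of Id2 and Id4 are shown because they hold the GC-rich element GGCGCC, which SMAD1 and SMAD5 are known to bind, present in 9.59% of the 32851 promoters. Capitals mark GGCGCC, the RBPJ core TGGGAA and the N-box CACNAG on either strand, and no 2 of these overlap.
Id2 (chr12:25096254-25096342, minus strand, in an intron of an annotated Id2 transcript): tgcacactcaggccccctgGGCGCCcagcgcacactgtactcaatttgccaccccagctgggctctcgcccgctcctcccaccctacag
Id4 (chr13:48260866-48261115, plus strand, within the span of 2 antisense genes): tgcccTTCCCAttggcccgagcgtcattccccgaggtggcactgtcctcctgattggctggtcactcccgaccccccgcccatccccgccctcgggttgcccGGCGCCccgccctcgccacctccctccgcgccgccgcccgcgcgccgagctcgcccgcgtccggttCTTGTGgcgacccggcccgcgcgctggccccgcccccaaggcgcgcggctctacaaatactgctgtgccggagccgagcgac
The element starts 231 bases before the RefSeq start of Id2 and 148 bases before that of Id4. Among the 7 genes with a window, the RBPJ core was found in Id4 alone, 245 bases before the start. Hes1, Hey1 and Id1 had no window and were not searched, and the window of Id3 lay wholly in annotated exons. A match of letters is a description of the mouse reference and shows no binding in these cells.

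The make-up of the ID family also shifted. Id3 held 64.5%, 66.2% and 67.9% of the summed FPKM of the 4 ID genes in Unt and 33.8%, 32.5% and 32.6% in DOX, where Id1 held 53.9%, 57.5% and 56.1%. In D_MgHCF the share of Id3 was 17.5%, 23.3% and 45.4%, so replicate 3 lay between the other 2 and Unt. The log2(FPKM + 1) ratio of Id1 to Id3 was 1.98 higher in DOX than in Unt and 2.21 higher in D_MgHCF than in Unt, both without overlap (two-sided exact permutation test, p = 0.1, adjusted p = 0.16). For the ratio of Id1 to Id2 the difference between DOX and Unt was 0.18 and the groups overlapped (exact permutation p = 0.3, adjusted p = 0.38). The log2(FPKM + 1) ratio of Hes1 to Id1 overlapped between Unt, DOX and D_DXZ, with means of -2.55 ± 0.16, -2.30 ± 0.447 and -2.55 ± 0.142 (SD, n = 3). In D_MgHCF it was -2.07 ± 0.0411, which overlapped with DOX (difference 0.24, two-sided exact permutation p = 0.4, adjusted p = 0.46) but not with Unt or D_DXZ (p = 0.1 each, adjusted p = 0.16).

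The patterns of 3 genes were compared with those of 9982 protein-coding genes with a mean FPKM of at least 1, by the root-mean-square difference of gene-centred log2(FPKM + 1) over the 12 libraries, a description in which genes share libraries and scaling. Notch1 was most like Syt17 (0.124), Daxx (0.145) and Slc35f6 (0.147). Hes1 was most like Fzd4 (0.233) and Mllt11 (0.250). Id1 was most like Exo5 (0.181), Zbtb6 (0.208) and Alg11 (0.224). Hey1 and Id4 were too low to be compared. Among the other members, Id1 was the nearest to Hes1, with a difference of 0.285 and rank 12 of all genes compared, and Jag1 was the next nearest to Id1, at 0.312 and rank 58. From Hes1, Id2 was at 0.397 (rank 262), Jag1 at 0.415 (rank 331), Notch1 at 0.578 (rank 1449), Notch2 at 0.613 (rank 1730), Id3 at 1.12 (rank 6099) and Notch3 at 1.19 (rank 6616).

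Other genes of the pathway were read from 8 lists with 68 genes, of which 66 were tested, while Dlk1 was listed at 0 in all libraries and Bmp2 in all but 1. In DOX against Unt 10 of them were higher and 28 lower, in D_DXZ against Unt 11 and 28, in D_MgHCF against Unt 15 and 13, in D_MgHCF against DOX 39 and 12, and in D_MgHCF against D_DXZ 34 and 12. In the same order, limma called 18.6% of all genes higher and 19.9% lower, 15.9% and 18%, 24.3% and 15.7%, 31.4% and 20.1%, and 29.4% and 19%. The list counts in D_MgHCF against Unt were close to those shares. Counts of single lists below are to be read beside the same shares. With TPM the list counts were 1 higher and 43 lower in DOX against Unt, 1 and 43 in D_DXZ against Unt, 49 and 4 in D_MgHCF against DOX, and 49 and 3 in D_MgHCF against D_DXZ. Over all genes tested, TPM called 4.44% higher and 40.8% lower in DOX against Unt and 3.65% and 40.3% in D_DXZ against Unt. It called 53.9% higher and 6.75% lower in D_MgHCF against DOX and 51.1% and 6.23% in D_MgHCF against D_DXZ, so the list counts moved with those of all genes. In D_DXZ against DOX limma called 0 of the 66. At an unadjusted p under 0.05, 3 were higher and 3 lower, 6 in all, close to the 4.56% higher and 4.97% lower of all genes.

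The direction of the genes for cleavage of Notch receptors depended on the scaling. Of the 9 genes of this list, 5 were higher and 1 lower in DOX than in Unt, with a median log2 fold change of 1.18, and 5 were lower and 2 higher in D_MgHCF than in DOX, with a median of -0.62. With TPM 1 was higher and 4 lower in DOX against Unt, with a median of -0.14 that lay above the shift of the median gene of -1.18. In D_MgHCF against DOX the list turned with TPM, to 5 higher and 3 lower and a median of 0.57, which lay below the shift of the median gene of 1.02. Ncstn, the substrate receptor of gamma-secretase, was at 20.5, 22.4 and 22.8 FPKM in Unt, 69.6, 84.9 and 92.2 in DOX and 37.6, 21.7 and 17.3 in D_MgHCF, a rise of 1.85 on the log2 scale in DOX (adjusted p = 0.000147 in limma). Adam17, a sheddase of many membrane proteins, fell in D_MgHCF against DOX by 1.81 (adjusted p = 7.61e-05). Adam10, the main ligand-dependent Notch sheddase, rose by 1.39 in DOX against Unt (adjusted p = 7.19e-05).

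The nuclear side fell in DOX, as Notch2 and Hes1 did. Of the 10 genes for the nuclear complex and co-repressors, 9 were lower and 1 higher in DOX than in Unt (9 lower and none higher with TPM), and D_MgHCF against DOX gave 6 higher and 1 lower. In D_MgHCF against Unt none was higher and 4 were lower, with a median of -0.22, whereas the Hes1 libraries all lay above Unt. Rbpj, the DNA-binding subunit, was at 8.09, 7.88 and 7.77 FPKM in Unt, at 2.09, 1.74 and 1.63 in DOX, at 3.35, 2.27 and 2.27 in D_DXZ and at 4.03, 4.08 and 4.30 in D_MgHCF. It fell by 1.66 in DOX (adjusted p = 1.17e-05) and by 0.79 in D_MgHCF (adjusted p = 0.000962) against Unt in limma, so D_MgHCF lay between both. Tle3, a Groucho co-repressor, was 1.39 higher in D_MgHCF than in DOX (adjusted p = 0.000502), and the exception in DOX was Kat2b, an acetyltransferase, at 1.28 (adjusted p = 1.98e-05) in limma but -0.01 with TPM (adjusted p = 0.998).

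Of the other HES/HEY genes, Bhlhe40, Bhlhe41 and Nrarp, 10 in all, DOX had 2 below Unt and none above (3 and none with TPM). In D_MgHCF 5 were higher and 1 lower than in Unt, and 7 were higher and none lower than in DOX, and with TPM 7 were higher and 1 lower than in Unt. Nrarp, a feedback inhibitor induced by Notch, was at 0.139, 0.178 and 0.159 FPKM in Unt, 0.306, 0.181 and 0.234 in DOX and 3.85, 3.97 and 1.58 in D_MgHCF, a rise of 1.77 against Unt (adjusted p = 0.000199) and 1.68 against DOX (adjusted p = 0.000109) in limma. Bhlhe40, a hypoxia and clock-linked repressor, fell by 1.79 in DOX (adjusted p = 1.37e-05). Lfng, which adds sugars to Notch receptors and alters their ligand choice, was 1.59 higher in D_MgHCF than in Unt (adjusted p = 0.000409), the largest rise among the 8 genes for receptor glycosylation and ligand endocytosis, of which 2 were higher and 2 lower. The ligands Dll1, Dll3 and Dll4 and the receptor Notch4 were higher in D_MgHCF than in Unt but reached at most 0.729 FPKM, for Dll4, in any library, and Jag2 was 0.55 higher in D_MgHCF than in DOX (adjusted p = 0.000808).

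The genes around the ID proteins moved in 2 ways. Of 13 BMP signalling genes tested, 7 were lower and none higher in DOX than in Unt (10 lower with TPM), and D_MgHCF against DOX gave 8 higher and none lower. Smad4, the shared partner of the signal-carrying SMADs, was at 18.1, 19.6 and 19.6 FPKM in Unt, 4.69, 3.13 and 2.35 in DOX and 4.46, 8.90 and 16.8 in D_MgHCF, and fell by 2.23 in DOX against Unt (adjusted p = 0.000657). The ligand gene Bmp4 was at 10.9, 11.2 and 12.4 FPKM in Unt, 4.07, 4.37 and 2.11 in DOX and 41.0, 23.6 and 4.86 in D_MgHCF, which gave 2.05 for D_MgHCF against DOX (adjusted p = 0.0125) and -1.51 for DOX against Unt (adjusted p = 0.0622) in limma. The E protein genes Tcf3 and Tcf12, whose products ID proteins bind, were lower in D_MgHCF than in Unt, by 0.96 (adjusted p = 0.00268) and 1.21 (adjusted p = 9.61e-05) in limma, and Tcf3 was 0.02 from Unt in DOX (adjusted p = 0.997). With TPM all 3 E protein genes were lower in DOX than in Unt.

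Of the 9 genes for Notch inhibition and turnover, 8 were tested, of which 5 were lower and 1 higher in DOX than in Unt, and D_MgHCF against DOX gave 6 higher and 1 lower. Numb, which promotes Notch endocytosis, fell by 1.28 in DOX against Unt (adjusted p = 6.53e-05), and Dtx2, a Deltex ubiquitin ligase, was 1.46 higher in D_MgHCF than in DOX (adjusted p = 0.000131) in limma. Dtx3 was the exception in both, at 0.89 and -1.04 (adjusted p = 0.00381 and 0.00134), which turned to -0.42 and 0.12 with TPM (adjusted p = 0.0193 and 0.438). With TPM 7 of the 8 were lower and none higher in DOX against Unt.

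**Figure D4:**
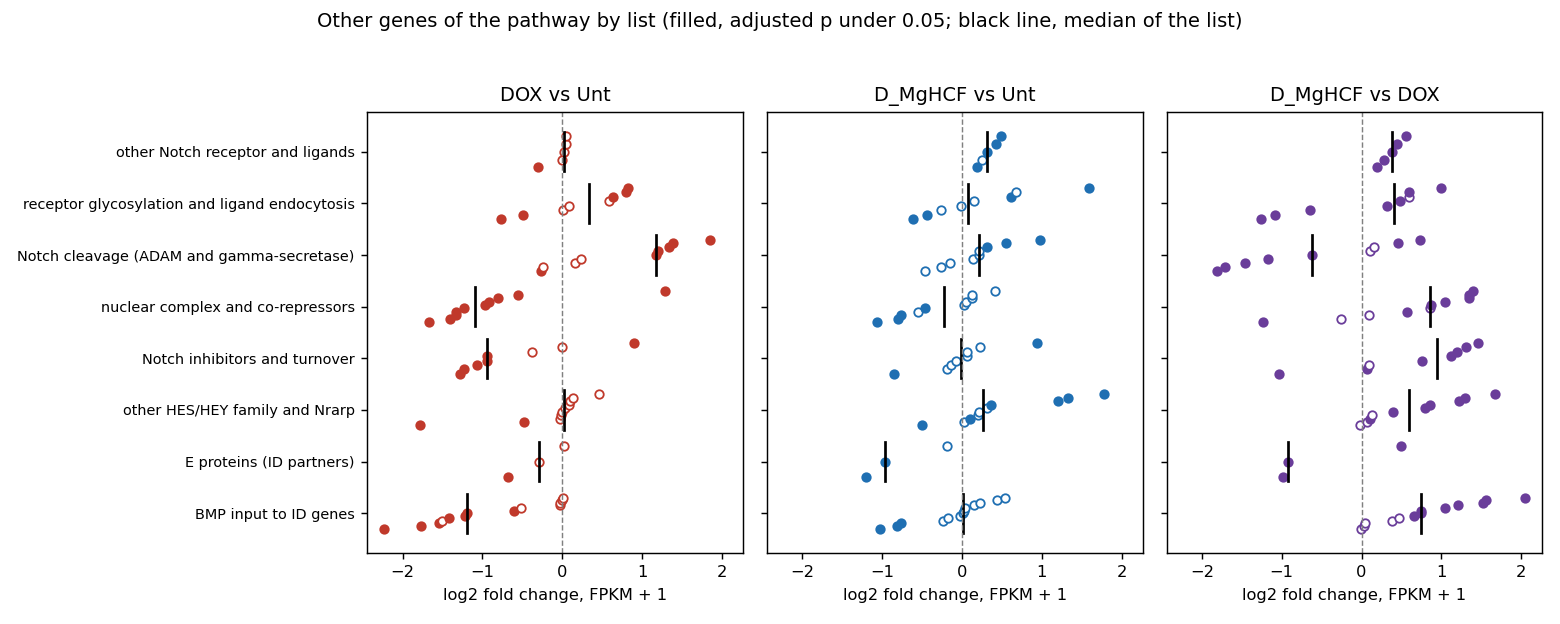
Log2 fold changes on the FPKM + 1 scale (horizontal axes) of the 66 pathway genes tested, by list, in 3 comparisons, filled where the adjusted p was under 0.05, with a black line at each list's median. In DOX against Unt the median of the cleavage list lies at 1.18 and that of the nuclear complex list at -1.10.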

How the data were processed

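Poly(A) RNA libraries of H9c2 cells (NEBNext Ultra kit, paired-end reads of 150 bp) were aligned by the authors with HISAT2 2.0.5 to GRCm38 (mm10), per the submitters' processing notes. The authors deposited FPKM values per gene and library with mouse Ensembl identifiers. The counting program, the annotation release and the doses in the sequenced cells are not given in the sources used here. FPKM times gene length was a whole multiple of 1 step per library, within 0.02 reads, for 100% of values. The deposited scaling was 1.26 to 1.43 times the summed reads in D_MgHCF and 1.32 to 1.38 times in Unt, but 0.747 to 0.892 times in D_DXZ and 0.647 to 0.784 times in DOX.

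Here log2(FPKM + 1) of the 25044 genes above 0 in at least 3 libraries was fitted with limma 3.58.1 (trend, R 4.3.3) in 1 model of the 4 groups without a covariate, and calls were made at a Benjamini-Hochberg adjusted p under 0.05. The model was tested on simulated data with normal errors, equal spread in all groups, and changes in DOX alone, in higher-expressed genes. That setting does not cover the wider spread of D_MgHCF or low genes such as Hey1 and Id4. Alternatives were a pseudocount of 0.1, FPKM of at least 1 or no filter, unadjusted p, a replicate block, 2-group fits, TPM, quantile normalization, FPKM over summed reads, voom on recovered reads, and each library left out. The members and gene lists were chosen with earlier results of these data known. Named were all members, list genes with the largest called changes in DOX against Unt or D_MgHCF against DOX with some further list genes, and the 3 genes most like Notch1, Hes1 and Id1. The single-gene values of 2 genes under this rule are not reported here. GENCODE transcripts were searched for close copies of the members with BLAST 2.17.0, at 95% identity over 150 bases, and only overlapping genes were found. Limits from counts cover counting error only.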

Additional observations from a re-analysis of the deposited data

How the results depend on the processing

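No member called in a comparison changed direction under any alternative except Notch3 in D_MgHCF against DOX. Of the 60 member results, 60 kept direction and side of the threshold with a pseudocount of 0.1, 58 with voom, 55 with quantile normalization, 53 in 2-group fits and 48 each with TPM and with FPKM over summed reads. With TPM, Notch3 was -0.73 in DOX against Unt, -0.89 in D_DXZ against Unt, 0.34 in D_MgHCF against DOX and 0.50 in D_MgHCF against D_DXZ, and over summed reads it was -0.31, -0.44, 0.11 and 0.24. Hey1 was -0.40, -0.38 and 0.027 with TPM and -0.11, -0.090 and 0.019 over summed reads in DOX against Unt, D_DXZ against Unt and D_DXZ against DOX. Id4 in DOX against Unt was -0.061 with TPM and -0.014 over summed reads, Jag1 in D_MgHCF against Unt was -0.13 with TPM, and Notch1 in DOX against Unt was 0.034 with quantile normalization. No reversed fold change passed the threshold, and the cause was not tested.

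Leaving out 1 library turned 5 values: Jag1 in D_MgHCF against Unt ranged from -0.25 to 0.43 (-0.25 and -0.09 without D_MgHCF replicate 1 or 2), Hey1 in D_DXZ against DOX from -0.087 to 0.031, Id3 in D_MgHCF against D_DXZ from -0.00019 to 0.57, Id4 in DOX against Unt from -0.0092 to 0.015 and the log2 ratio of Id1 to Id3 in D_MgHCF against DOX from -0.17 to 0.69. The count of members called ranged from 6 to 7 in DOX against Unt, from 3 to 7 in D_DXZ against Unt, from 4 to 10 in D_MgHCF against Unt (10 without D_MgHCF replicate 3), was 0 throughout in D_DXZ against DOX, and ranged from 9 to 10 in D_MgHCF against DOX and from 8 to 9 in D_MgHCF against D_DXZ. At an unadjusted p, 2 members and 6 list genes were called in D_DXZ against DOX, where 4.56% of all genes were higher and 4.97% lower. In 2-group fits, 5 members were called in D_MgHCF against D_DXZ, 3 in D_MgHCF against Unt and 9 in D_MgHCF against DOX. The same fits called 7 members in DOX against Unt and 7 in D_DXZ against Unt. The main model uses 1 spread per gene for all groups, while replicates correlated least in D_MgHCF. The cause of these differences was not tested. Quantile normalization gave 31 list genes in D_MgHCF against DOX, where 51 were called on the deposited scaling. Over all genes tested it called 4626 higher and 4914 lower, against 7863 and 5027, so fewer were called there too. The cause was not tested. Without a filter 4 members were called in D_DXZ against Unt.

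Same-numbered libraries of different groups did not deviate together on average, with a mean correlation of 0.013 over 18 pairs and 2 above 0.1. The highest of these was 0.306, for replicate 1 of DOX and D_DXZ. Of 36 differently numbered pairs, 5 were above 0.1, with a mean of -0.0058. With 3 libraries per group this cannot show whether the cultures were run in parallel, so no pairing was used. A replicate block gave 5 members in D_DXZ against Unt and left 59 of the 60 member results on their side. Hey1 and Id4 did not pass the filter at FPKM of at least 1, and with 0 to 26 reads outside D_MgHCF their lower groups cannot be ranked at this depth.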
